A study of Mus musculus with 4 samples.

Results

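Transcripts of 10 genes of the TGF-beta and activin pathway were followed through 4 sorted populations of cancer-associated fibroblasts (CAF) from intraperitoneal melanomas. The genes encode the ligands Tgfb1, Tgfb2, Tgfb3 and Inhba, the receptors Tgfbr1, Tgfbr2 and Tgfbr3, the activin antagonist Fst, the latency protein Ltbp1 and the TGF-beta-induced matrix protein Tgfbi. They were listed by name and not by a cutoff on a measured value, but earlier results of these data were known. They are 10 of the 33696 genes in the deposited gene list, and all 10 were among the 14855 genes with at least 100 unique molecular identifiers (UMIs) over the kept cells. The largest differences lay between classes of cell. With all libraries and animals pooled, matrix fibroblast-like cells held 4.77 times the Fst level, 3.68 times the Inhba level and 2.92 times the Tgfb1 level of mesothelial-like cells. Their Ltbp1 level was 78.7 counts per 1000000, while mesothelial-like cells held 3.90, close to the 4.63 of melanoma-like cells. A Calb2-Nos2 group of cells carried 49.8% of all Inhba UMIs, and an Inmt group had the highest Tgfbr2, Tgfbr3, Ltbp1 and Tgfb2 levels with almost no Inhba.

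TGF-beta ligands are secreted in a latent form, held by their own propeptide and tethered to matrix by latent TGF-beta binding proteins, and they must be released before they can signal. Released ligand binds the type II receptor TGFBR2, which activates the type I receptor TGFBR1 and through it the transcription factors SMAD2 and SMAD3, while the co-receptor betaglycan (TGFBR3) presents ligand to the signaling pair. Activin A, a pair of Inhba-encoded subunits, uses its own receptors to reach the same SMADs and is captured outside the cell by follistatin (FST). In tumors the pathway is known for driving fibroblasts to make and contract matrix and for restraining lymphocytes.

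The cells came from B16-F1-OVA tumors, a mouse melanoma line that carries the ovalbumin antigen, at day 14 after 400000 tumor cells were injected into the peritoneal cavity. The hosts carried Cxcl13-cre-tdTomato and R26R-eGFPflox on a strain labelled C57Bl/6. The first transgene puts tdTomato and the cre recombinase under Cxcl13 control, and the second allele makes eGFP permanently in any cell in which cre has acted. Cells negative for CD45 and CD31 and high for podoplanin (PDPN) were sorted into tdTomatoneg eGFPneg, tdTomatoneg eGFP+, tdTomato+ eGFPneg and tdTomato+ eGFP+ populations. The tumor, the time and both alleles are common to the populations, which were separated by the reporter gate. Their mix of animals was not the same, since cells marked by Xist alone and by Y-linked transcripts alone numbered 2666 and 2036 in the tdTomatoneg eGFPneg library and 2079 and 1097 in the tdTomato+ eGFPneg library. tdTomato thus marks current Cxcl13 promoter activity, and eGFP marks activity at some earlier time, as far as excision was complete. Each population is 1 library, with no statement of how many animals it pooled. No difference between populations therefore has a replicate check, no p-value is given, and every interval covers counting error only.

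The libraries held between 984 and 11745 barcodes and between 10071954 and 90259852 UMIs. Of 24489 barcodes, 22691 had 500 to 6000 detected genes and at most 10% mitochondrial UMIs and were kept. Median UMIs per kept cell ran from 5607 in the tdTomatoneg eGFPneg library to 9154 in the tdTomato+ eGFPneg library. Cxcl13 stood at 210 and 190 counts per 1000000 UMIs (CPM) in the tdTomatoneg libraries without and with eGFP, and at 2134 and 1060 CPM in the tdTomato+ libraries without and with eGFP. Within matrix fibroblast-like cells this order broke down, since the tdTomato+ eGFP+ library held 60.8 CPM of Cxcl13 against 218 CPM in the tdTomatoneg eGFPneg library. Library pairs shared between 2 and 17 kept cell barcodes.

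Collagen-expressing cells numbered 21476 and were divided into groups with the pathway genes left out of the genes used for clustering, so that no member shaped the classes directly. Matrix fibroblast-like cells (4665 cells, a non-cycling and a cycling group) and mesothelial-like cells (10383 cells in the Krt18-Muc16, Nebl-Trpm8 and cycling groups) were named from marker lists. The leading genes of the cycling mesothelial-like group were cell-cycle genes, with 3 of its top 10 on the cycling list and 0 on the mesothelial list. It was kept with the mesothelial-like cells because all 13 mesothelial markers were higher in it than in the other groups together. That check pooled the libraries, and the mesothelial marker Msln differed between libraries within this group, as given below. The group holds 4523 of the 10383 cells, and values are therefore also given by group or without the cycling groups. The Calb2-Nos2 group (4580 cells) and the Inmt group (1848 cells) are called by their leading genes. In the Calb2-Nos2 group no matrix, Pi16 or mesothelial marker list lay above the other groups on average, so it was not named as a class. Its kinship to mesothelial-like cells was not tested. Inmt group cells had a median of 1743.5 UMIs, 0.302 of the median of their own libraries, and 1745 of them were in the tdTomatoneg eGFPneg library. All 10 markers on a Pi16 fibroblast list were higher in the Inmt group than in the rest, but none was among its top 10 genes. A shallow group with no such gene in its top 10 was left unnamed, as was any group scoring highest on the Pi16 list. The sort left 593 immune-like cells, with Ptprc (CD45) at 198 CPM against 0.411 CPM in collagen-expressing cells, and 622 melanoma-like cells. Immune-like cells also carried 3046 CPM of Col1a1, a collagen transcript, and its source was not tested.

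A level is the sum of a gene's UMIs in a group per 1000000 UMIs of that group, with an exact 95% Poisson interval, and a ratio of levels carries an exact 95% conditional interval. A member is called higher or lower when the ratio is at least 1.5-fold. UMIs of a 3′ assay are not scaled by transcript length, so values for different genes compare UMIs and not protein. Shares of cells with a UMI are given after each cell was thinned to 1000 UMIs, unless the unthinned share is named.

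**Figure D1:**
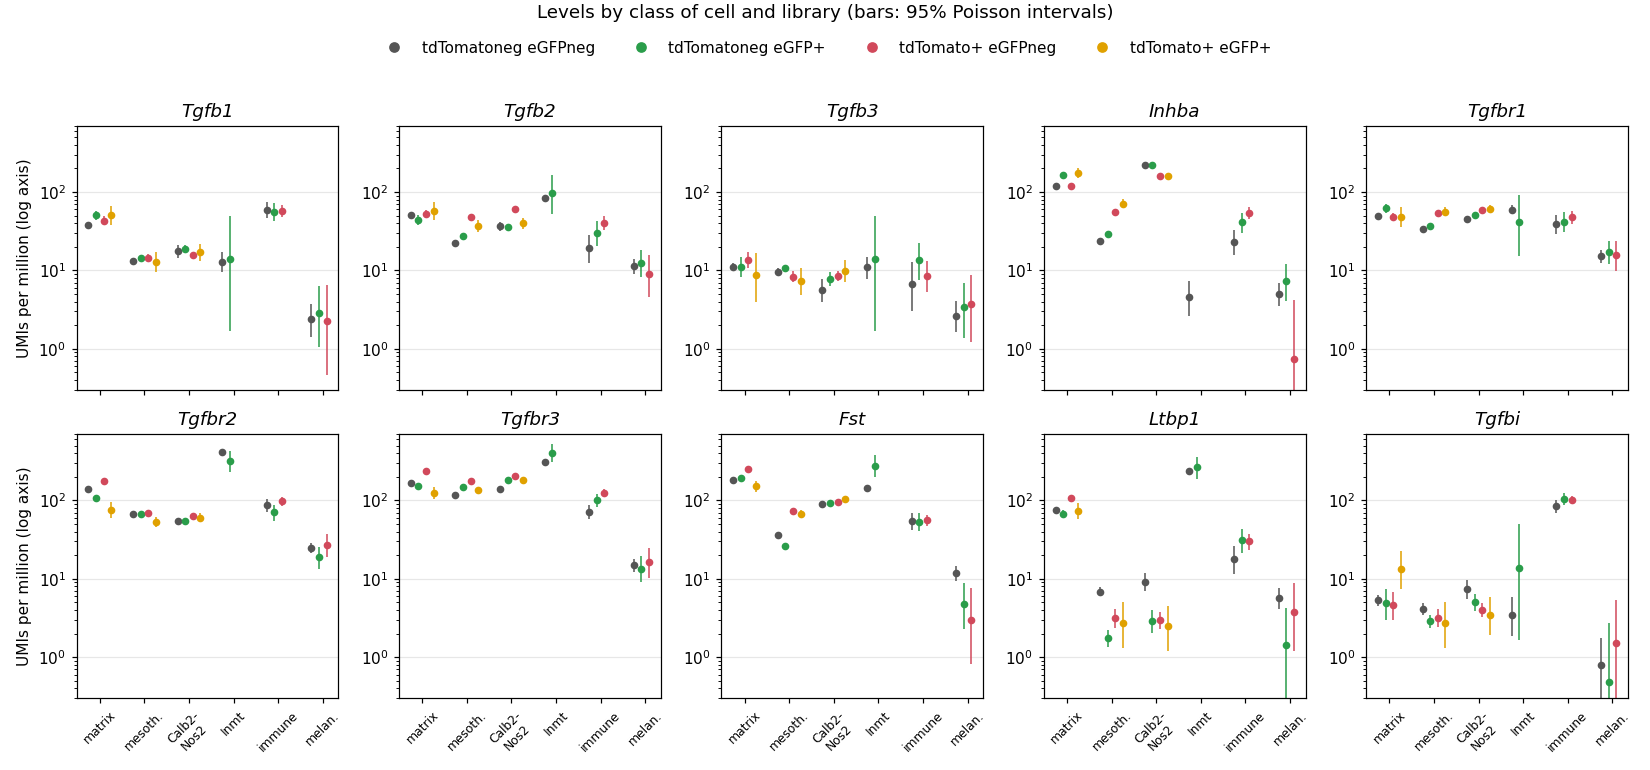
Levels of the 10 members (UMIs per 1000000, log axis) in 6 classes of cell, with 1 point for each library that held at least 50 cells of the class and at least 1 UMI of the gene, colored by library, and exact 95% Poisson intervals as bars. Points of the Inmt group are highest for Tgfbr2 (414 and 319 CPM) and Ltbp1 (240 and 263 CPM), those of the Calb2-Nos2 group run from 158 to 221 CPM for Inhba, and those of immune-like cells from 83.8 to 105 CPM for Tgfbi.

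Tgfb1, the isoform most often tied to fibrosis and immune restraint, was highest in immune-like and matrix fibroblast-like cells. In matrix fibroblast-like cells its level was 40.5 CPM (95% interval 38.5 to 42.4). The tdTomatoneg eGFPneg, tdTomatoneg eGFP+, tdTomato+ eGFPneg and tdTomato+ eGFP+ libraries, an order kept below, gave 38.2, 50.4, 43.3 and 51.1 CPM. In mesothelial-like cells the level was 13.8 CPM (13.1 to 14.6), with 13.1, 14.3, 14.4 and 12.9 CPM in the 4 libraries. The lowest matrix value thus stood above the highest mesothelial value, and the ratio was 2.92 in the tdTomatoneg eGFPneg library, 3.52 in the tdTomatoneg eGFP+ library, 3.00 in the tdTomato+ eGFPneg library and 3.97 in the tdTomato+ eGFP+ library. Immune-like cells reached 58.4 CPM, with 59.4, 56.4 and 57.4 CPM in the 3 libraries with at least 50 such cells. Being few, they held 7.38% of Tgfb1 UMIs, while matrix fibroblast-like cells held 40.6%. The Calb2-Nos2 group (16.9 CPM) and the Inmt group (12.6 CPM, interval 9.33 to 16.6) sat near the mesothelial-like level, and the Inmt and mesothelial-like intervals overlapped. Melanoma-like cells were lowest at 2.4 CPM, and 0 of 615 of them had a Tgfb1 UMI after thinning.

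Tgfb2, the isoform that depends most on betaglycan for receptor binding, had a different order. The Inmt group was highest at 84.7 CPM (75.9 to 94.3), with 82.8 CPM in the tdTomatoneg eGFPneg library and 97.0 CPM in the tdTomatoneg eGFP+ library. Matrix fibroblast-like cells followed at 51.1 CPM (48.9 to 53.3), and the Calb2-Nos2 group at 48.8 CPM (46.8 to 50.9) did not differ from them beyond counting error (ratio 1.05, 0.986 to 1.11). The spread over libraries was narrow in matrix fibroblast-like cells, at 51.5, 44.2, 53.0 and 57.9 CPM. Mesothelial-like cells averaged 29.7 CPM (28.6 to 30.9) but were uneven, with 22.3 and 27.2 CPM in the tdTomatoneg libraries and 48.1 and 37.0 CPM in the tdTomato+ libraries. In the tdTomato+ eGFPneg library the matrix level was only 1.10 times the mesothelial level, against 2.31 times in the tdTomatoneg eGFPneg library. Among mesothelial-like groups Tgfb2 was 48.9 CPM in the Nebl-Trpm8 group, 26.5 CPM in the cycling group and 23.8 CPM in the Krt18-Muc16 group.

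Tgfb3 was the scarcest of the 3 TGF-beta isoforms and the most even. Its level was 11.4 CPM in matrix fibroblast-like cells, 11.1 CPM in the Inmt group, 9.78 CPM in mesothelial-like cells, 8.8 CPM in immune-like cells and 8.02 CPM in the Calb2-Nos2 group. The matrix over mesothelial ratio was 1.17 (1.04 to 1.30), short of a call. The Inmt interval, 8.04 to 14.8 CPM, contained the matrix, mesothelial and immune-like levels.

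The balance of isoforms followed from these levels. Tgfb1 made up 39.3% of the 3 isoforms' UMIs in matrix fibroblast-like cells (exact binomial 95% interval 37.8 to 40.8), 25.9% in mesothelial-like cells (24.7 to 27.2), 23.0% in the Calb2-Nos2 group and 11.6% in the Inmt group (8.73 to 15.0). Tgfb2 was the most counted isoform in each of those 4, from 49.6% in matrix fibroblast-like cells to 78.2% in the Inmt group. Immune-like cells were the exception, with Tgfb1 at 58.0% (53.6 to 62.2). Cycling matrix fibroblast-like cells also leaned to Tgfb1, at 51.4% against 33.2% in the non-cycling group. Libraries moved the mesothelial balance, where Tgfb2 took 49.6% and 51.9% in the tdTomatoneg libraries and 67.8% and 64.6% in the tdTomato+ libraries. Tgfb3 had its largest share, 23.6%, in the Krt18-Muc16 group.

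**Figure D2:**
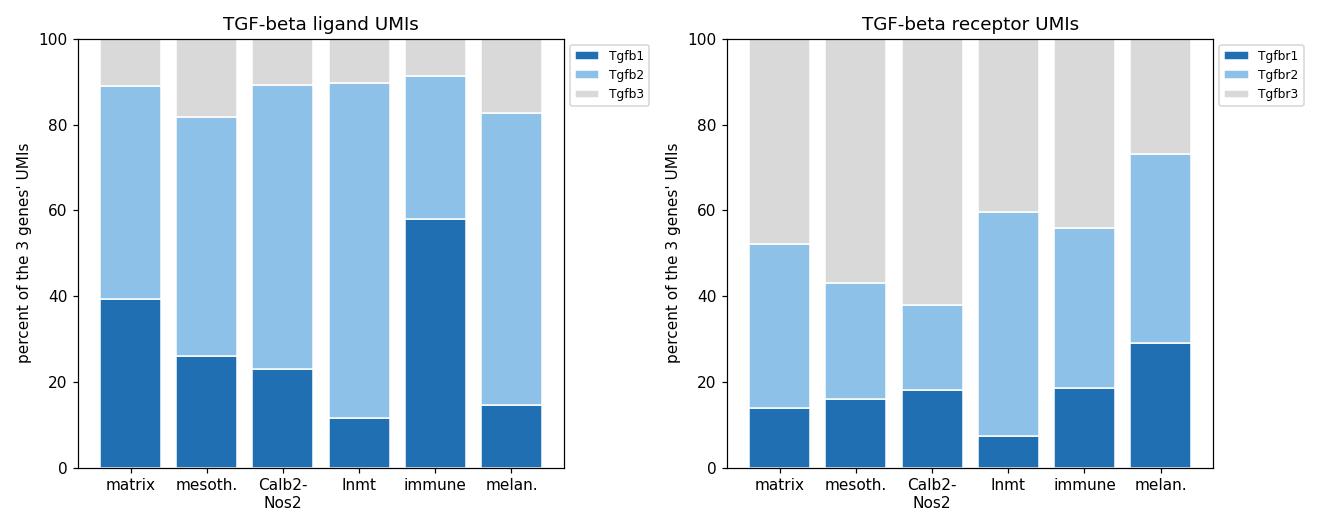
Percent of TGF-beta ligand UMIs from Tgfb1, Tgfb2 and Tgfb3, and percent of receptor UMIs from Tgfbr1, Tgfbr2 and Tgfbr3, stacked to 100% in each class of cell, all libraries together. Tgfb2 takes 78.2% of ligand UMIs in the Inmt group and Tgfb1 takes 58.0% in immune-like cells, while Tgfbr2 takes 52.2% of receptor UMIs in the Inmt group and Tgfbr3 takes 62.2% in the Calb2-Nos2 group.

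Tgfb1, Tgfb2 and Inhba each had their highest level in a different class, and the DNA before their start sites is shown for that reason. The sequences are the 250 bases before the annotated start of each gene from RefSeq, on build GRCm38.p6, 5′ to 3′ on the strand of the gene, with the motifs searched in capitals. Tgfb1 lies on the plus strand (chr7:25686752-25687001), Tgfb2 on the minus strand (chr1:186705990-186706239) and Inhba on the plus strand (chr13:16011601-16011850). The counts themselves were made on GRCm39, so these coordinates belong to another build.

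Tgfb1: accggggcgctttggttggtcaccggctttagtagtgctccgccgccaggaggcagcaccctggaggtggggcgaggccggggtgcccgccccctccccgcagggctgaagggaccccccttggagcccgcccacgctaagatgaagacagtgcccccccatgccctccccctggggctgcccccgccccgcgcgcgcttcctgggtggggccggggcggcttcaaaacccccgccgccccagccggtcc

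Tgfb2: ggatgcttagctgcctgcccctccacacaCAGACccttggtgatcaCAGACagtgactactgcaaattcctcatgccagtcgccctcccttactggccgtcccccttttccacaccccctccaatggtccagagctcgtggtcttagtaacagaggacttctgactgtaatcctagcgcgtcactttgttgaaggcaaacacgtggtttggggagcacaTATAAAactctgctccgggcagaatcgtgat

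Inhba: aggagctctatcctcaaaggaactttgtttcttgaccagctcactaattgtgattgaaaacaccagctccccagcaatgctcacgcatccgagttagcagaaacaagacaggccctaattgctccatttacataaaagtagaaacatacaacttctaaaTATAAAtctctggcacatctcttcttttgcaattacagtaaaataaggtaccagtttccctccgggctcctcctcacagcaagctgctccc

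Each RefSeq window runs from 250 bases before to 50 bases after the start, and windows were listed for 7 of the 10 members (9 windows) and not for Tgfb3, Tgfbr3 and Fst. The motifs were CAGAC, which contains the core bound by SMAD3 and SMAD4, the palindrome GTCTAGAC, which shares AGAC with CAGAC but does not contain it, the AP-1 motif TGANTCA, and TATAAA, all searched on both strands. The Tgfb2 window held CAGAC at positions -221 and -204 from the start and TATAAA at -31. The Inhba window held TATAAA at -91 and no CAGAC, and the Tgfb1 window held none of the 4 motifs and was 77.0% G or C, more than 97.6% of the 32851 windows. CAGAC was also present in windows of Tgfbr1, Tgfbr2, Ltbp1 and Tgfbi. It occurs in 49.6% of all windows, TATAAA in 13.6%, TGANTCA in 7.81% and GTCTAGAC in 0.213%. No member window held TGANTCA or GTCTAGAC. These matches describe letters in the windows and not sites of binding.

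Inhba, which encodes the activin A subunit, had the widest range of the ligands. The Calb2-Nos2 group was highest at 185 CPM (181 to 189), with 219, 221, 158 and 162 CPM in the 4 libraries. Matrix fibroblast-like cells held 125 CPM (121 to 128), with 119, 165, 118 and 174 CPM. Mesothelial-like cells held 33.9 CPM (32.8 to 35.2), with 23.8, 29.3, 55.6 and 71.3 CPM. Their cycling group had 46.1 CPM and carried 2495 of their 3163 Inhba UMIs, while the Krt18-Muc16 and Nebl-Trpm8 groups had 17.3 and 16.9 CPM. The Calb2-Nos2 group and matrix fibroblast-like cells stood above mesothelial-like cells in every library, while the Calb2-Nos2 and matrix values overlapped. The Inmt group had 17 Inhba UMIs in 1848 cells, which is 4.27 CPM (2.49 to 6.84). That is close to the 4.81 CPM of melanoma-like cells, and after thinning 0.253% of Inmt group cells (median 1743.5 UMIs) and 0.163% of melanoma-like cells (median 17636.5 UMIs) had a UMI, with overlapping intervals, so the Inmt value is read as background. Unthinned, the shares were 0.920% and 4.34%.

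Inhba UMIs were concentrated in few cells. Summed over all kept cells Inhba and Tgfbr2 had nearly the same level, 85.2 and 84.8 CPM. A Tgfbr2 UMI was nevertheless found in 9.87% of thinned cells (42.0% unthinned) and an Inhba UMI in 4.31% (16.0% unthinned). In the Calb2-Nos2 group, the class with the most Inhba, 9.58% of thinned cells had an Inhba UMI.

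Fst, whose product binds and neutralizes activin, was highest in matrix fibroblast-like cells at 192 CPM (188 to 196), with 182, 195, 251 and 151 CPM in the 4 libraries. The Inmt group held 150 CPM (138 to 163), the Calb2-Nos2 group 94.3 CPM (91.6 to 97.2) and mesothelial-like cells 40.2 CPM (39.0 to 41.6). Mesothelial-like levels were 35.9, 26.5, 72.9 and 67.5 CPM, all below the lowest matrix value. Within them Fst was 54.1 CPM in the cycling group, 25 CPM in the Krt18-Muc16 group and 15.6 CPM in the Nebl-Trpm8 group. In the Calb2-Nos2 group Fst hardly varied between libraries, at 90.7, 92.9, 94.7 and 103 CPM. Matrix fibroblast-like cells carried 46.7% of all Fst UMIs.

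The ratio of Inhba to Fst UMIs was highest in the Calb2-Nos2 group and lowest in the Inmt group, while the library values of matrix fibroblast-like and mesothelial-like cells overlapped. Over all kept cells it was 1.01 (0.985 to 1.03). In the Calb2-Nos2 group it was 1.96 (1.89 to 2.03), and it was above 1 in every library, at 2.41, 2.38, 1.67 and 1.57. In matrix fibroblast-like cells it was 0.650 (0.627 to 0.673), with 0.650, 0.847 and 0.471 in the first 3 libraries and 1.15 (0.920 to 1.43) in the 95 matrix cells of the tdTomato+ eGFP+ library. Mesothelial-like cells gave 0.843 (0.804 to 0.885), and there the eGFP+ libraries, at 1.11 and 1.06, were above the eGFPneg libraries, at 0.664 and 0.762. The Inmt group was lowest at 0.0285 (0.0165 to 0.0460). Inhba and Fst UMIs of Xist-marked cells were 1204 and 2903 in matrix fibroblast-like cells, 1310 and 1871 in mesothelial-like cells and 4620 and 2920 in the Calb2-Nos2 group. Those of Y-marked cells were 2437 and 2473, 964 and 802, and 1739 and 455. The balance thus leaned more to Inhba with the Y mark in all these classes, and the part of sex or animal was not tested. Ligand and antagonist were also found in the same cells. After thinning, 1.38% of matrix fibroblast-like cells (64 cells) had a UMI of both, against 0.856% given by the product of the separate shares. In mesothelial-like cells the values were 0.238% (24 cells) and 0.0706%, and in the Calb2-Nos2 group 1.03% (47 cells) and 0.707%. Cells differ in size, state and doublet content, and the part of these in the shared detection was not tested.

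**Figure D3:**
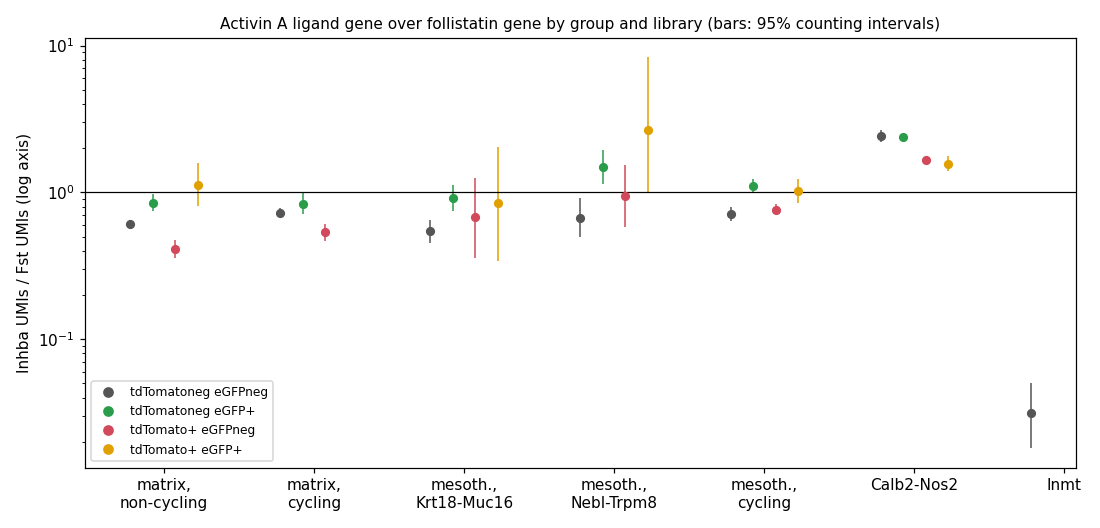
Inhba UMIs over Fst UMIs (log axis) by group of cells, with 1 point for each library, colored by library, and exact 95% intervals as bars; the horizontal line marks 1. The 4 Calb2-Nos2 points lie between 1.57 and 2.41, the 4 non-cycling matrix points between 0.413 and 1.13 and the 3 cycling matrix points between 0.534 and 0.838, and the single Inmt point lies at 0.0313 because the other Inmt library held 0 Inhba UMIs.

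Tgfbr1, the type I receptor that carries the kinase signal to SMAD2 and SMAD3, was the most even receptor. It stood at 59.1 CPM in the Inmt group (51.8 to 67.1), 54.6 CPM in the Calb2-Nos2 group (52.5 to 56.7), 50.9 CPM in matrix fibroblast-like cells (48.7 to 53.1), 43.2 CPM in immune-like cells and 39.8 CPM in mesothelial-like cells (38.5 to 41.1). The Inmt group and the Calb2-Nos2 group did not differ beyond counting error (ratio 1.08, 0.943 to 1.24), and the Calb2-Nos2 group was 1.07 times as high as matrix fibroblast-like cells (1.01 to 1.14). Within mesothelial-like cells it was 57.6 CPM in the Nebl-Trpm8 group and 20.0 CPM in the Krt18-Muc16 group.

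Tgfbr2, the type II receptor that binds ligand first, separated the classes more. The Inmt group held 412 CPM (393 to 433), with 414 CPM in the tdTomatoneg eGFPneg library and 319 CPM in the tdTomatoneg eGFP+ library. Matrix fibroblast-like cells held 139 CPM (136 to 143), with 139, 108, 174 and 76.2 CPM. Mesothelial-like cells held 66.7 CPM (65.0 to 68.3), with 66.3, 67.1, 69.3 and 52.7 CPM, and the Calb2-Nos2 group held 59.1 CPM. All 4 matrix values were above all 4 mesothelial values, although the lowest matrix value, in the tdTomato+ eGFP+ library, was only 1.45 times its own library's mesothelial level. After thinning, 31.8% of Inmt group cells and 13.3% of matrix fibroblast-like cells had a Tgfbr2 UMI, against 2.11% of melanoma-like cells. Unthinned, those shares were 46.9%, 55.3% and 30.7%, so the order of the Inmt and matrix shares depends on equal depth, and the CPM order follows the thinned one.

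Tgfbr3, which encodes betaglycan, was the most counted member, with 30967 UMIs. Its levels were 319 CPM in the Inmt group (301 to 337), 187 CPM in the Calb2-Nos2 group (183 to 191), 174 CPM in matrix fibroblast-like cells (170 to 178), 141 CPM in mesothelial-like cells (139 to 144) and 102 CPM in immune-like cells. Unlike Tgfbr2, it was higher in the Calb2-Nos2 group than in mesothelial-like cells, and within mesothelial-like cells it was 225 CPM in the Nebl-Trpm8 group against 104 CPM in the Krt18-Muc16 group. Across libraries the values ran from 125 to 237 CPM in matrix fibroblast-like cells and from 117 to 176 CPM in mesothelial-like cells, so the library ranges of the 2 classes overlapped.

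Receptor balance mirrored these levels. Tgfbr3 made up 62.2% of receptor UMIs in the Calb2-Nos2 group, 57.0% in mesothelial-like cells (56.4 to 57.6), 47.8% in matrix fibroblast-like cells (47.0 to 48.6) and 40.3% in the Inmt group. Tgfbr2 made up 52.2% in the Inmt group, 38.2% in matrix fibroblast-like cells, 26.9% in mesothelial-like cells and 19.7% in the Calb2-Nos2 group. The number of Tgfbr2 UMIs per Tgfbr1 UMI was 6.98 in the Inmt group, 2.74 in matrix fibroblast-like cells, 1.68 in mesothelial-like cells and 1.08 in the Calb2-Nos2 group. The Krt18-Muc16 group, at 4.06, stood apart from other mesothelial-like cells through its low Tgfbr1.

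Ltbp1, which anchors latent TGF-beta in the matrix, was high in the Inmt group and in matrix fibroblast-like cells. The Inmt group held 242 CPM (227 to 257), with 240 and 263 CPM in its 2 larger libraries, and matrix fibroblast-like cells held 78.7 CPM (76.0 to 81.4), with 75.5, 67.1, 107 and 73.3 CPM. They carried 19.3% and 65.5% of its UMIs. Immune-like cells held 32.1 CPM. Mesothelial-like cells had 3.90 CPM (3.51 to 4.32) and the Calb2-Nos2 group 3.78 CPM. The thinned share of mesothelial-like cells with an Ltbp1 UMI, 0.307% (2.51% unthinned, median 7307 UMIs), was below that of melanoma-like cells, 0.488% (6.27% unthinned, median 17636.5 UMIs). The Calb2-Nos2 share of 0.547% (3.03% unthinned) was within the melanoma-like interval of 0.101% to 1.42%. Pooled Ltbp1 in mesothelial-like cells and in the Calb2-Nos2 group was thus near the melanoma-like level. Whether it is background there was not tested. In the tdTomatoneg eGFPneg library the Krt18-Muc16 and Calb2-Nos2 groups held 9.35 (7.65 to 11.3) and 9.17 CPM (7.02 to 11.8). Melanoma-like cells there held 5.71 CPM (4.13 to 7.69). The thinned shares of the 3 were 0.647%, 1.53% and 0.725%, with overlapping intervals. In the tdTomatoneg eGFP+, tdTomato+ eGFPneg and tdTomato+ eGFP+ libraries the Calb2-Nos2 group held 2.87, 2.95 and 2.48 CPM. Whether melanoma-like cells lack Ltbp1 was not tested.

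Tgfbi, a matrix protein named for its induction by TGF-beta, was highest in immune-like cells. Immune-like cells held 95.7 CPM (87.5 to 104), with 83.8, 105 and 102 CPM in 3 libraries, and 10.6% of them had a UMI after thinning (37.3% unthinned). They made up 593 of 22691 kept cells and 39.0% of Tgfbi UMIs. Collagen-expressing cells held 4.19 CPM, from 5.40 CPM in matrix fibroblast-like cells to 3.38 CPM in mesothelial-like cells. In the Inmt group the level rested on 15 UMIs.

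Counted together, 7 of the 10 members were called higher in matrix fibroblast-like than in mesothelial-like cells, none lower, and Tgfbr1, Tgfbr3 and Tgfb3 were not called. Of all genes tested, 17.1% were called higher and 18.4% lower in this comparison. The median log2 ratio of the members was 0.92 and that of all genes was -0.07. Ltbp1 had the largest ratio, 20.2 (18.1 to 22.6), over a mesothelial-like level near that of melanoma-like cells. Fst followed at 4.77 (4.59 to 4.96), with 5.08, 7.35, 3.45 and 2.24 within the libraries, and Inhba at 3.68 (3.52 to 3.84), with 4.97, 5.61, 2.13 and 2.44. Tgfbr2 stood at 2.09 (2.01 to 2.16), Tgfb2 at 1.72 (1.62 to 1.82) and Tgfbi at 1.60 (1.34 to 1.90). The Tgfbi ratio was below the call in the tdTomatoneg eGFPneg and tdTomato+ eGFPneg libraries, at 1.30 and 1.44. Without the cycling groups the ratios were 8.90 for Fst and 6.77 for Inhba. Among Xist-marked cells, matrix and mesothelial-like levels were 210 and 81.6 CPM for Fst, 86.9 and 57.1 for Inhba and 26.7 and 10.3 for Tgfb1. Among Y-marked cells they were 195 and 22.6, 192 and 27.1, and 55.3 and 17.6 CPM. The part of sex or animal in the class ratios was not tested. With the Calb2-Nos2 group counted as mesothelial-like, 4 members were called instead of 7.

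The Inmt group was called higher than matrix fibroblast-like cells for 4 members and lower for 2, where 24.7% of all genes were higher and 22.0% lower. Higher were Ltbp1 at 3.07 (2.85 to 3.30), Tgfbr2 at 2.96 (2.80 to 3.13), Tgfbr3 at 1.83 (1.72 to 1.94) and Tgfb2 at 1.66 (1.47 to 1.86). Lower were Inhba at 0.0343 (0.0199 to 0.0549) and Tgfb1 at 0.311 (0.230 to 0.412). Without the cycling groups the Tgfb2 ratio was 1.45, short of a call. The 6 kept the same side of 1 in both libraries with at least 50 Inmt group cells. The tdTomatoneg eGFP+ library held only 66 such cells, with 0 Inhba, 2 Tgfb1 and 14 Tgfb2 UMIs. Its Tgfb1 interval, 0.0331 to 1.005, contained 1. Fst lay on both sides of 1, at 0.794 in the tdTomatoneg eGFPneg library and 1.42 in the tdTomatoneg eGFP+ library. Xist-marked cells numbered 728 in the Inmt group and 1316 in matrix fibroblast-like cells, and Y-marked cells 10 and 1135. Among Xist-marked cells, Inmt and matrix levels were 14.2 and 26.7 CPM for Tgfb1, 4.42 and 86.9 for Inhba and 298 and 115 for Ltbp1. For Tgfbr2, Tgfbr3 and Tgfb2 they were 440 and 174, 402 and 240, and 96.2 and 51.0 CPM. The part of sex or animal in these ratios was not tested.

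Compared with mesothelial-like cells, the Calb2-Nos2 group was called higher for 3 members and lower for none, where 11.2% of all genes were higher and 15.9% lower. Inhba led at 5.44 (5.22 to 5.67), with 9.17, 7.53, 2.84 and 2.27 within the libraries. Fst stood at 2.34 (2.24 to 2.45), with 1.30 in the tdTomato+ eGFPneg library and calls in the other 3, and Tgfb2 at 1.64 (1.55 to 1.74). Without the cycling groups Inhba was 10.8, Fst 4.47 and Tgfb2 1.42, the last short of a call. For all 3 the ratio was larger in the tdTomatoneg eGFPneg library than in the tdTomato+ eGFPneg library. The Tgfb2 ratio was below a call in 3 of the 4 libraries. Xist-marked cells numbered 2354 in the Calb2-Nos2 group and 1911 in mesothelial-like cells, and Y-marked cells 695 and 3064. Among Xist-marked cells, levels in the 2 were 176 and 57.1 CPM for Inhba, 111 and 81.6 for Fst and 53.9 and 31.4 for Tgfb2. Among Y-marked cells they were 233 and 27.1, 61.0 and 22.6, and 45.6 and 33.6 CPM. The part of sex or animal was not tested.

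**Figure D4:**
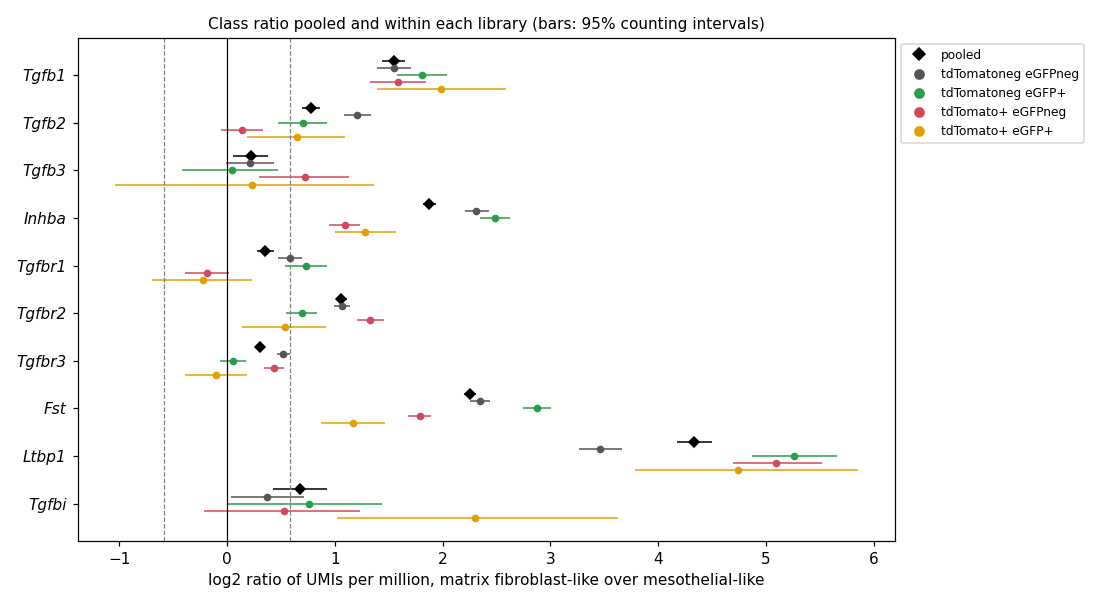
Log2 ratio of the level of each member in matrix fibroblast-like over mesothelial-like cells, pooled (black diamonds) and within each library (colored points), with exact 95% intervals as bars; dashed lines mark 1.5-fold higher and lower. Ltbp1 lies farthest to the right, with a log2 ratio of 4.34 pooled and of 3.46 to 5.26 within the libraries, while Tgfbr1 and Tgfbr3 points lie on both sides of 0.

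Between populations, more members were called in mesothelial-like than in matrix fibroblast-like cells. In tdTomato+ eGFPneg against tdTomatoneg eGFPneg mesothelial-like cells 5 members were called higher and 1 lower, where 17.9% of all genes were higher and 9.7% lower. Inhba was 2.33 times as high (2.12 to 2.56), Tgfb2 2.16 times (1.95 to 2.38), Fst 2.03 times (1.88 to 2.20), Tgfbr1 1.64 times (1.5 to 1.79) and Tgfbr3 1.5 times (1.43 to 1.58). Tgfb1 and Tgfbr2 were level at 1.11 and 1.04. The median of all genes was 0.16 higher on the log2 scale, and with that shift taken out 3 members were called higher and 1 lower. The member called lower was Ltbp1 at 0.456, from 3.13 against 6.86 CPM, and whether these levels are background was not tested. Melanoma-like cells held 5.71 CPM (4.13 to 7.69) in the tdTomatoneg eGFPneg library. In the tdTomato+ eGFPneg library they held 3.75 CPM (1.22 to 8.74) from 5 UMIs, so their order was within counting error. The part of free RNA in the Ltbp1 ratio was not tested. Median mitochondrial UMIs of mesothelial-like cells were 0.686% and 0.906% in those libraries, and their part in the ratios was not tested.

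The mesothelial-like groups did not contribute alike, since cycling cells were 1046 of 1744 in the tdTomato+ eGFPneg library and 1604 of 4208 in the tdTomatoneg eGFPneg library. In the cycling group Inhba stood at 70.7 against 31.4 CPM, a ratio of 2.25 (2.02 to 2.51), and Fst at 93.2 against 43.9 CPM, a ratio of 2.12 (1.94 to 2.33). In the Krt18-Muc16 group the same genes pointed the other way, Inhba at 9.91 against 15.8 CPM (0.629, 0.370 to 1.01) and Fst at 14.6 against 29.1 CPM (0.502, 0.328 to 0.739). The Nebl-Trpm8 group gave ratios of 0.882 (0.573 to 1.34) for Inhba and 0.628 (0.420 to 0.918) for Fst. With the cycling groups left out, mesothelial-like Inhba and Fst ratios were 0.765 and 0.529. Tgfb2, in contrast, was higher in all 3 groups, at 3.03 (2.41 to 3.80) in the Krt18-Muc16 group, 1.78 (1.45 to 2.18) in the Nebl-Trpm8 group and 2.24 (1.95 to 2.58) in the cycling group. Members called numbered 5 higher and 0 lower in the cycling group (19.5% of all genes higher and 9.65% lower), 1 higher and 4 lower in the Krt18-Muc16 group (13.5% and 24.6%) and 1 higher and 3 lower in the Nebl-Trpm8 group (16.8% and 14.9%). Cycling cells of the 2 libraries also differed in other genes, with Nos2 at 51.1 against 13.0 CPM, Calb2 at 5.51 against 2.16 CPM and the mesothelial marker Msln at 16.3 against 148 CPM, and the part of these in the Inhba and Fst ratios was not tested.

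**Figure D5:**
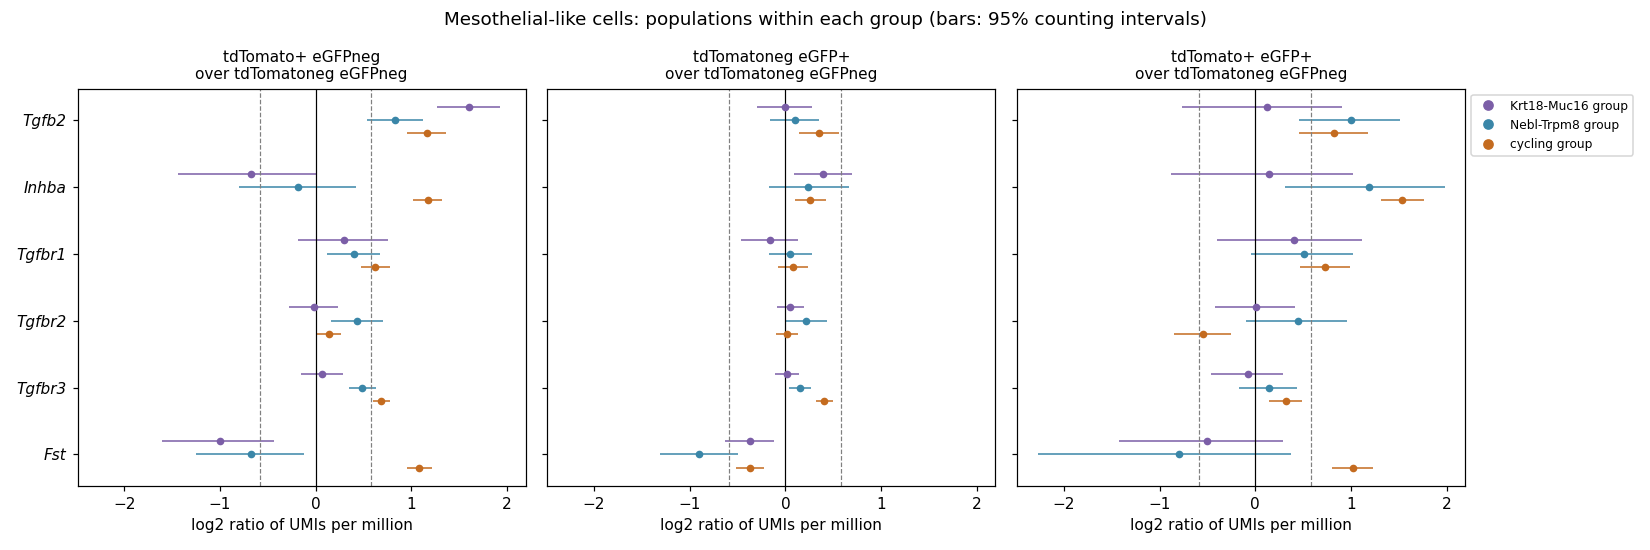
Log2 ratio of the levels of 6 members in each population over the tdTomatoneg eGFPneg population, 1 panel for each population, within the 3 mesothelial-like groups (colors), with exact 95% intervals as bars and dashed lines at 1.5-fold higher and lower. In the tdTomato+ eGFPneg panel the cycling group lies to the right of 0 for Inhba and Fst (2.25 and 2.12 times as high) and the Krt18-Muc16 group to the left (0.629 and 0.502), while Tgfb2 lies to the right in all 3 groups.

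In tdTomato+ eGFP+ mesothelial-like cells (361 cells) 4 members were called higher and 2 lower than in tdTomatoneg eGFPneg cells, where 13.1% of all genes were higher and 14.8% lower. Inhba had the largest ratio, 2.99 (2.59 to 3.44), followed by Fst at 1.88, Tgfbr1 at 1.69 and Tgfb2 at 1.66. The lower ones, Ltbp1 and Tgfbi, rested on 10 UMIs each. In tdTomatoneg eGFP+ mesothelial-like cells no member was called higher, where 6.84% of all genes were higher and 6.41% lower. Ltbp1 was lower at 0.255 (0.191 to 0.336), again from low levels, at 1.75 against 6.86 CPM. There Inhba stood at 1.23, Tgfb2 at 1.22 and Fst at 0.737. The Inhba to Fst ratios above 1 in both eGFP+ libraries thus went with a low Fst level in the tdTomatoneg one and a high Inhba level in the tdTomato+ one. All populations are compared with the same tdTomatoneg eGFPneg library, so the comparisons share its counting error.

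In matrix fibroblast-like cells no member was called in the tdTomato+ eGFPneg library, where 14.2% of all genes were higher and 9.49% lower, and the ratios ran from 0.858 for Tgfbi to 1.42 for Ltbp1 and Tgfbr3. No member was called in the tdTomatoneg eGFP+ library either, where 10.9% of all genes were higher and 13.1% lower. There Inhba stood at 1.39, Tgfb1 at 1.32 and Tgfbr2 at 0.779. Among the 95 tdTomato+ eGFP+ cells Tgfbi was called higher, at 2.53 (1.35 to 4.36) from 14 UMIs, and Tgfbr2 lower, at 0.547 (0.432 to 0.683), where 13.4% of all genes were higher and 24.6% lower.

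In the Calb2-Nos2 group, which made up 46.4% of the tdTomato+ eGFPneg library and 6.07% of the tdTomatoneg eGFPneg library, Inhba did not stand higher with tdTomato. Its ratio to the tdTomatoneg eGFPneg library was 0.723 in the tdTomato+ eGFPneg library. The pooled mesothelial-like ratio was 2.33, but it was 2.25 in the cycling group and 0.629 in the Krt18-Muc16 group. In Calb2-Nos2 cells of the tdTomato+ eGFPneg library Tgfb2 and Tgfb3 were called higher, at 1.68 and 1.54, and Ltbp1 and Tgfbi lower. There 21.0% of all genes were higher and 7.87% lower. The median of all genes was 0.21 higher on the log2 scale, and with that shift taken out no member was called higher and 3 were lower. The tdTomatoneg eGFP+ library gave only Ltbp1 lower, at 0.313, where 12.7% of all genes were higher and 7.9% lower. The tdTomato+ eGFP+ library gave Tgfb3 higher, at 1.78, and Ltbp1 and Tgfbi lower, where 17.7% of all genes were higher and 13.0% lower.

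Cells of both sexes were present in every library, marked by Xist alone (6480 cells) or by any of 4 Y-linked transcripts alone (5116 cells). These marks are compared because they divide each library into cells from different animals. Sex and animal cannot be told apart, and detection of a mark depends on depth. Tgfb1 was higher in Y-marked cells of each class, at 55.3 against 26.7 CPM in matrix fibroblast-like cells (ratio 2.07, 1.82 to 2.36), 17.6 against 10.3 CPM in mesothelial-like cells (1.70, 1.46 to 1.99) and 31.8 against 12.9 CPM in the Calb2-Nos2 group (2.47, 2.08 to 2.92). It kept that side in every library with at least 50 cells of each mark, from 1.35 to 2.88. In matrix fibroblast-like cells 3 members were called higher and 2 lower with the Y mark (6.94% of all genes higher and 10.5% lower), in mesothelial-like cells 1 and 4 (7.3% and 9.7%), and in the Calb2-Nos2 group 3 and 1 (9.94% and 10.4%). Inhba went both ways, at 2.21 in matrix fibroblast-like cells (192 against 86.9 CPM) and 0.475 in mesothelial-like cells (27.1 against 57.1 CPM). Fst was 0.277 (0.255 to 0.301) in mesothelial-like cells, 0.549 in the Calb2-Nos2 group and 0.930 in matrix fibroblast-like cells. Tgfbr2 was lower in Y-marked cells of all 3 classes, at 0.711, 0.682 and 0.748.

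The marks bear on the population values. In mesothelial-like cells, tdTomato+ eGFPneg over tdTomatoneg eGFPneg Inhba was 2.58 among Xist-only and 2.17 among Y-only cells, and Tgfb2 was 1.82 and 2.09. Fst was 2.10 among Xist-only cells but 1.23 among Y-only cells. In the tdTomato+ eGFP+ library Fst was 2.16 and 0.886, on opposite sides of 1. The tdTomato+ eGFPneg library held 581 Xist-only and 489 Y-only mesothelial-like cells, and the tdTomatoneg eGFPneg library held 612 and 1087.

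Among other genes of the pathway, matrix fibroblast-like cells stood above mesothelial-like cells most clearly for common targets of TGF-beta, with 8 of 14 tested called higher and 2 lower and a median log2 ratio of 1.15, where 17.1% of all genes were higher and 18.4% lower. Tagln, a contractile protein gene, was 6.84 times as high, Ccn2 4.20 times, Tnc 14.3 times and Loxl2 2.37 times, while Id1, a target of the BMP branch, was 0.369. Of 15 latency and activation genes 6 were higher and 3 lower. Lrrc32, which displays latent TGF-beta on the cell surface, stood at 52.5 against 1.32 CPM, and Ltbp2 at 24.9 against 4.78 CPM, whereas the activating integrin genes Itgb6 and Itgb8 were 0.422 and 0.392. Of 12 receptors 5 were higher and 2 lower, among them the co-receptor Eng at 30.2 against 3.86 CPM and the activin receptor Acvr2a at 34.4 against 10.6 CPM. Ligands divided 6 higher to 4 lower of 13, antagonists 4 to 4 of 11, and SMADs and their regulators 3 to 2 of 14, the last close to the shares of all genes. Smad3 was called lower, at 0.546, and Smad7, the inhibitory SMAD, stood at 0.680, short of a call.

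The Inmt group stood above matrix fibroblast-like cells for most of the ligands that are not members and below them for most targets. Of these 13 ligands 9 were higher and 1 lower, where 24.7% of all genes were higher and 22.0% lower. Their median log2 ratio was 2.33. The BMP genes Bmp4, Bmp6 and Bmp7 were 11.4, 9.61 and 53.4 times as high. Their matrix levels were low, at 4.36, 5.21 and 0.579 CPM. Of 14 targets 11 were lower and 2 higher, with a median of -1.77. Tnc stood at 8.80 against 760 CPM, and Tagln and Acta2 at ratios of 0.0296 and 0.0534. Ltbp4 was 11.0 times as high, at 289 against 26.3 CPM, while Ltbp2 was 0.0506. In the Calb2-Nos2 group targets were again mostly higher than in mesothelial-like cells, 10 of 14 with 1 lower against 11.2% and 15.9% of all genes, and Tnc was among the higher ones at 4.58. The activator Thbs1 stood at 791 against 344 CPM and Fstl3, an activin antagonist related to Fst, at 2.43. Smad7 was 1.73 there. Many targets are also matrix genes, and 4 that named the classes were left out of these counts.

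Over 20 groups of cells, formed by class and library, the genes most like each member among 9962 candidates were listed by the Pearson correlation of log2(CPM + 1), as a description. Inhba was most like Timp1 (r = 0.972) and Fam78b (0.971), Fst like Pde1a (0.982), Tgfbr3 like Arhgap6 (0.987) and Ltbp1 like Lama2 (0.965). Tgfb1 was most like BC028528 (0.964) and Pak1 (0.963), and Tgfbi like Ccl8 (0.949), a chemokine gene. Among members Tgfb2 went with Tgfbr3 (0.924) and with Fst (0.913), and Tgfbr2 with Ltbp1 (0.837), whereas Inhba and Tgfbr2 had r = -0.0427. The points share libraries and the depth of each group.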

How the data were processed

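Single cells were processed with the 10x Genomics 3′ chemistry, and the authors deposited UMI counts per gene and barcode for each of the 4 libraries, not normalized. The submitters' processing notes name Cell Ranger 10.0.0, STAR, Seurat 5.0 and build GRCm39, while the file headers give Cell Ranger 8.0.0. Reporter transcripts are not among the 33696 genes, so populations rest on the labels.

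Barcodes were kept when they had between 500 and 6000 detected genes and when mitochondrial transcripts made up no more than 10% of their UMIs. They were normalized, and collagen-expressing cells were clustered in R 4.3.3 with Seurat 5.3.0 on 2000 variable genes and 25 principal components, leaving out the 116 listed pathway genes. The planned comparison of Pi16 fibroblast-like cells used the Inmt group, which stayed unnamed. Doublets were kept, and an alternative removed the 1543 barcodes with the highest doublet scores at 0.8% per 1000 barcodes. UMIs were summed per group and library in Python 3.11.15 with numpy 2.4.6, scipy 1.17.1 and pandas 2.3.3, over groups of at least 50 cells and genes of at least 100 UMIs. Thinning to 1000 UMIs left out 25 matrix fibroblast-like, 289 mesothelial-like, 10 Calb2-Nos2, 265 Inmt, 37 immune-like and 7 melanoma-like cells. With 1 library per population no model was fitted across samples. The summing and interval code was tested on simulated data.

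The members and lists were chosen with earlier results of these data known. All 10 members are named, and list genes are named from those called at 1.5-fold or as standard members of a list. Genes named beyond this rule were chosen after their values were seen. Alternatives changed the mitochondrial limit, components, number of groups, doublets, scaling, fold, sex mark and libraries. Comparisons of the Calb2-Nos2 group and of groups within a class, and settings that reassigned it or left out cycling groups, were chosen after seeing the data. Bulk RNA and protein sequences were not analysed here.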

Additional observations from a re-analysis of the deposited data

Results flagged for a closer look

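Inhba and Fst stood on opposite sides in different mesothelial-like groups under the same contrast, tdTomato+ eGFPneg over tdTomatoneg eGFPneg. Inhba was 2.25 times as high in the cycling group and 0.629 in the Krt18-Muc16 group, the latter from 19 against 177 UMIs. Fst was 2.12 in the cycling group and 0.502 in the Krt18-Muc16 group, the latter from 28 against 327 UMIs. The Tgfbi ratio of the Inmt group over matrix fibroblast-like cells lay on opposite sides of 1 in different libraries, but within counting error. It was 2.85 (0.324 to 11.7) in the tdTomatoneg eGFP+ library, from 2 against 21 UMIs. In the tdTomatoneg eGFPneg library it was 0.649 (0.338 to 1.14), from 13 against 164 UMIs. Both intervals contain 1. The difference between groups or libraries was not tested for any of these genes, because each population is 1 library.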

How the results depend on the processing

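Of 120 member ratios in 12 comparisons, 39 were called, 21 of these were called the same way under every alternative run and 4 reversed under at least 1. The 4 were Fst and Inhba in tdTomato+ eGFPneg mesothelial-like cells without the cycling groups (0.529 and 0.765), Fst in tdTomato+ eGFP+ mesothelial-like cells without them (0.641) or with Y-only cells (0.886), and Tgfbi there with Y-only cells (1.10). Leaving out the cycling groups removes cells by construction. No paired analysis was possible because each population is 1 library.

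Counts of members called moved by over 1.5 times in these cases. Matrix over mesothelial-like went from 7 to 4 with the Calb2-Nos2 group counted as mesothelial-like. In mesothelial-like cells, tdTomatoneg eGFP+ went from 1 to 2 with median-of-ratios scaling, with a mean over cells, with Xist-only and with Y-only cells, and to 3 without cycling groups, and tdTomato+ eGFP+ went from 6 to 2 at 2-fold. In matrix fibroblast-like cells, tdTomato+ eGFPneg went from 0 to 2 with a mean over cells, 3 with Xist-only and 1 with Y-only cells, tdTomatoneg eGFP+ from 0 to 1, 2 and 1 under the same settings, and tdTomato+ eGFP+ from 2 to 4 with a mean over cells and 1 at 2-fold. The Calb2-Nos2 group over mesothelial-like went from 3 to 5 at a 5% mitochondrial limit, without doublets and with Y-only cells. Within that group, tdTomato+ eGFPneg went from 4 to 1 at 2-fold, tdTomatoneg eGFP+ from 1 to 2 with 40 components, without doublets, with median-of-ratios scaling and with a mean over cells and to 4 with Y-only cells, and tdTomato+ eGFP+ from 3 to 5 with a mean over cells and 6 with Y-only cells. The cause was not tested. Leaving out each library in turn gave 6 to 7 members called for matrix over mesothelial-like, 6 to 7 for the Inmt group over matrix and 2 to 3 for the Calb2-Nos2 group over mesothelial-like.

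With libraries weighted equally, matrix fibroblast-like cells had a Tgfb1 share of 42.1%, a Tgfbr3 share of 49.0% and an Inhba to Fst ratio of 0.779, and the mesothelial-like ratio was 0.898. That ratio was 0.793 at the 5% mitochondrial limit, and the mesothelial-like Tgfb1 share was 24.6% without doublets. Leaving out each library in turn gave, in matrix fibroblast-like cells, Tgfb1 shares of 38.3% to 43.0%, Tgfbr3 shares of 47.1% to 50.1% and ratios of 0.627 to 0.687. In mesothelial-like cells it gave Tgfb1 shares of 24.6% to 27.8%, Tgfbr3 shares of 55.9% to 58.4% and ratios of 0.745 to 0.929. Under these settings the matrix Tgfb1 share stayed above the mesothelial-like one and the Tgfbr3 share below it.

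Not run, for want of 50 cells, were the Inmt comparison with Y-only cells (10 cells) and tdTomato+ eGFP+ matrix fibroblast-like cells by mark (18 and 38 cells). Inmt group cells had a median of 1743.5 UMIs, and Tgfbi and Ltbp1 ratios in mesothelial-like cells rest on levels under 10 CPM.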

Other observations

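Of 15 genes whose products hold or release latent TGF-beta, 2 were called higher and 7 lower in the Inmt group than in matrix fibroblast-like cells, where 24.7% of all genes were higher and 22.0% lower. Ltbp4 was higher at 289 against 26.3 CPM and Ltbp2 lower at a ratio of 0.0506, while the member Ltbp1 was higher at 3.07. Among 11 antagonists 6 were higher and 5 lower. Chrdl1, a BMP antagonist, was 34.3 times as high, over a matrix level of only 1.23 CPM, and Nbl1 4.89 times. Fstl1, a follistatin-like secreted protein, was 0.494. The BMP receptor gene Bmpr2 was 1.82 times as high. Gdf10, a ligand related to the BMPs, was 7 times as high in the Inmt group as in matrix fibroblast-like cells, and was itself at 14.2 CPM in matrix fibroblast-like cells against 0.623 CPM in mesothelial-like cells. Fbn2, which encodes a fibrillin that binds latent complexes, stood at 33.7 against 0.494 CPM in the latter comparison, and Bmp4 was lower there, at 4.36 against 20.8 CPM.

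Tgfb3, with levels of 8.02 to 11.4 CPM over the collagen-expressing classes, also differed between sex marks. The Y-only over Xist-only ratio was 2.28 (1.79 to 2.92) in matrix fibroblast-like cells, 2.12 (1.65 to 2.73) in the Calb2-Nos2 group and 1.22 (1.02 to 1.46) in mesothelial-like cells. Ltbp1 was 0.546 (0.501 to 0.595) in matrix fibroblast-like cells and Tgfbr3 was 0.651 (0.615 to 0.688) there. The marks are of animals as well as of sex, and the Inmt group could not be divided, with 728 Xist-only and 10 Y-only cells.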
